A study of Mus musculus with 36 samples.

Results

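The genes described here encode the core and regulatory proteins of pre-mRNA splicing in the mouse heart. They were chosen by symbol: Snrp genes (proteins of the small nuclear ribonucleoproteins, snRNPs), Sf3a and Sf3b genes (the SF3 subunits of the U2 snRNP), Srsf genes (SR proteins) and Hnrnp genes (heterogeneous nuclear ribonucleoproteins). The rule found 51 genes of 20701, namely 11 Snrp, 9 SF3, 11 SR and 20 hnRNP genes. Together they were read by 144 probe sets, and each gene is given by its probe set with the highest mean over the 36 arrays. The rule uses the symbols and that mean. Snrpd1 was not analysed here.

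Hearts of OF1 mice, an outbred stock, were profiled at 12 stages with 3 arrays each: every day from E10.5 to E19.5, at 10 weeks (Adult) and in older adults (Old). The age of the Old group is 14 months in the series' design text and 10 months in the methods. The labels name no treatment and no altered allele in any group. From E12.5 onward each stage held 1 male, 1 female and 1 mixed-sex heart sample, and the arrays of E10.5 and E11.5 were all mixed, so the spread between the 3 arrays of a stage includes sex. The values are RMA intensities on a log2 scale, and a difference of 1 is a 2-fold change. Their precision is limited by the 3 arrays per stage.

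The mixed arrays of E17.5 and E18.5 stood apart from their stages. The median level of the 51 genes was 8.67 on the mixed E17.5 array, against 9.15 and 9.12 on the others, and 8.62 on the mixed E18.5 array, against 9.19 and 9.06. Without these arrays the counts by stage of highest and lowest mean given below were the same, and the counts of calls that changed are given beside the results.

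Whole hearts hold several cell types, and the levels of their markers changed over the series. The mean of 9 cardiomyocyte marker genes lay between 11.7 and 12.1 in every stage. Under this mean, single genes differed between stages in both directions. The extraction note in the labels names liver, but the mean of 7 liver genes lay between 3.26 and 3.98 in every stage. The mean of 10 proliferation genes was 8.22 ± 0.16 at E10.5, but 6.39 ± 0.19 by E19.5 and 4.39 ± 0.04 in Adult (SD, n = 3). The mean of 7 erythroid genes was 7.62 at E10.5 and 3.66 by E19.5, whereas that of 6 leukocyte genes was 3.56 at E10.5, then 4.66 by E19.5, 6.36 in Adult and 7.19 in Old. In such bulk tissue, fewer cells of a type and less RNA per cell cannot be told apart, and the part of these shifts in the results below was not tested.

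Splicing removes introns in a particle built from small nuclear RNAs and their proteins. A ring of Sm proteins closes around most of these RNAs, the U1 snRNP marks the start of an intron, and the U2 snRNP, with its SF3 subunits, binds the branch point near its end. SR proteins bind exons and mostly favour their inclusion, while hnRNPs coat the transcript and often favour skipping. In the heart the choice of exons in sarcomere and calcium handling genes shifts between fetal and adult life, and these proteins are among the regulators of such choices.

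Upstream sequences are shown for the gene of each class with the largest E10.5 to Adult difference among the 21 genes that had a RefSeq window (GRCm38.p6) ending at the start of the annotated gene. Each is the 250 bases before that start, read 5′ to 3′ on the gene's strand. Capitals mark matches, on either strand, to 5 short motifs. These are the box CCAAT, the GC box written GGGCGG, the ETS core CGGAAG, the TATA box written TATAAA and the E-box written CACGTG. None of these matches overlapped another motif.
Snrpf (chr10:93589659-93589908, minus strand): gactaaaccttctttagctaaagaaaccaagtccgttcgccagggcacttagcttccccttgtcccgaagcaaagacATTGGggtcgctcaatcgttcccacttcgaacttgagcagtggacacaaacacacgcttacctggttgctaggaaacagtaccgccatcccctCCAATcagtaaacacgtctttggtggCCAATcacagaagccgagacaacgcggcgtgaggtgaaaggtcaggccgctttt
Sf3a3 (chr4:124714611-124714860, plus strand): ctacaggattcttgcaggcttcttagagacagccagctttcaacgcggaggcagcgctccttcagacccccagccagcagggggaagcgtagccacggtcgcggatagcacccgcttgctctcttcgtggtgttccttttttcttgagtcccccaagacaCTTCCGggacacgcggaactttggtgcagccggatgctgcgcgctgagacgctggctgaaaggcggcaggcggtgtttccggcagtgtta
Srsf6 (chr2:162931258-162931507, plus strand): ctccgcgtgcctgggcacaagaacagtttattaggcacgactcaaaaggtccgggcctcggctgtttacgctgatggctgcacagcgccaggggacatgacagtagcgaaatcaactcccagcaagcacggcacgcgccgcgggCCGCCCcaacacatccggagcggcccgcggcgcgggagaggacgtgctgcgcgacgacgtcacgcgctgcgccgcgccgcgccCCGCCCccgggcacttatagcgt
Hnrnpm (chr17:33685459-33685708, minus strand): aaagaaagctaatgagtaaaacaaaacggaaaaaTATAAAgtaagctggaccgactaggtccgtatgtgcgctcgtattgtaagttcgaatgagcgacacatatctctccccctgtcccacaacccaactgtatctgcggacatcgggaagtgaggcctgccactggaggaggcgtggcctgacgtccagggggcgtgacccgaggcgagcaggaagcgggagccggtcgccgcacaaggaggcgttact

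None of the 4 windows held CACGTG. Snrpf held 3 CCAAT matches, Srsf6 held 2 GGGCGG, Sf3a3 held 1 CGGAAG and Hnrnpm held 1 TATAAA, and none held a second kind of motif. RefSeq windows were at hand for 46 of the 51 genes, 9 of them with several, and some start at a transcript that begins inside the gene. The 250 bases before each annotated start were searched, and a gene was counted where any of its windows held the motif. CGGAAG, the core of the sites bound by ETS factors, was found for 25 of these 46 genes (54.3%), against 15.3% of 27025 genes with a window and 30.2% of the 7376 of those genes whose mean array level was above 5. GGGCGG was found for 33 (71.7%, against 35.4% of all and 67.3% of the genes above 5). CCAAT was found for 22 (47.8%, against 37.5% and 40.2%), TATAAA for 6 (13.0%, against 14.3% and 7.7%) and CACGTG for 4 (8.7%, against 6.9% and 10.2%). A match of these letters is a description of the window and not of a bound site.

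The first comparison set the earliest hearts against the mature organ. Transcripts of the splicing genes were higher at E10.5 than in Adult in nearly every case: 46 of the 51 genes were higher and 2 were lower (limma over all probe sets, Benjamini-Hochberg adjusted p under 0.05). Among all 20701 genes, 28.5% were higher and 38.6% lower, and among the 9538 genes with a mean above 5, where 49 of the 51 belong, 50.7% were higher and 22.9% lower. The median difference of the 51 genes was 1.44 on the log2 scale, against 0.44 for the genes with a mean above 5 and -0.21 for all genes. The 2 lower genes were Sf3b2 and Snrpn, and Sf3b4, Sf3b6 and Srsf12 did not pass the test. Under the limits for a differentially expressed gene (DEG: adjusted p under 1e-05, more than 4-fold, and 1 or more stage means over 5), 10 of the 51 were DEGs and all were higher at E10.5, against 5.14% of all genes that were higher DEGs and 2.64% that were lower ones.

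**Figure D1:**
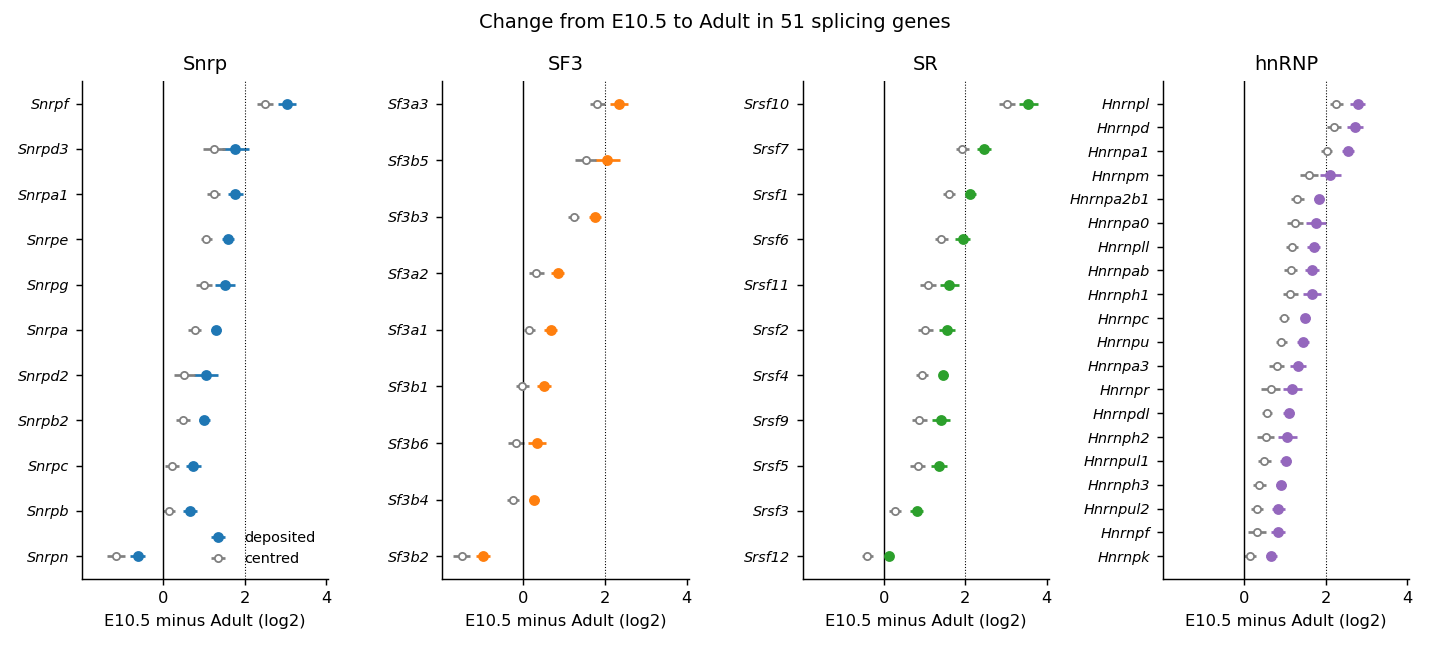
Difference in log2 intensity between E10.5 and Adult (x axis) for each of the 51 genes (y axis), by class. Filled points are deposited values and open points are values after each array was centred, bars are standard errors of the fit, and the dotted line marks a 4-fold change; among the filled points Srsf10 lies farthest to the right at 3.55 and Sf3b2 farthest to the left at -0.98.

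The scale on which arrays are compared changed the size of this difference. The median of the probe sets with a mean above 5 was 6.68 at E10.5, then 6.34 by E19.5, 6.15 in Adult and 6.30 in Old. After each array was centred on that median, 37 genes were higher and 3 lower at E10.5, the median difference was 0.92, and 5 genes were past the DEG limits, while the genes with a mean above 5 had a median of -0.09 with 33.5% higher and 38.8% lower. The spiked hybridization controls also moved with stage, at 9.90 ± 0.39 at E10.5 and 12.17 ± 0.22 in Adult (SD, n = 3). With their level as a covariate, 23 genes were higher and 1 lower, 14 turned in direction, 1 was past the DEG limits and the median difference was 0.70. The shares of all genes were not taken for this covariate.

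Among the proteins of the Sm ring, Snrpf, which encodes SmF, stood first. Its 3 arrays read 10.05, 9.99 and 10.10 at E10.5, 8.41, 8.07 and 8.31 at E19.5, and 7.22, 6.61 and 7.21 in Adult. The 3 groups did not overlap, and the difference between E10.5 and Adult was 3.03 ± 0.22 (SE, adjusted p = 4.87e-13), an 8.18-fold change. Its level was close to flat from E12.5 to E14.5, with a stage mean of 9.49 at each, and most of the total difference lay after E14.5. The other ring genes were higher at E10.5 by smaller amounts: Snrpd3 by 1.77, Snrpe by 1.59, Snrpg by 1.52, Snrpd2 by 1.05 and Snrpb by 0.67 on the log2 scale. On centred arrays Snrpd2, at 0.52, and Snrpb, at 0.14, did not pass the test. With the hybridization covariate Snrpd3 turned to -0.66, Snrpg to -0.19, Snrpd2 to -1.10 and Snrpb to -0.22.

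Genes of this ring differed in when they fell. Snrpb, which encodes SmB and SmB′, read 9.38, 9.76 and 9.07 at E10.5, 8.10, 7.97 and 7.51 at E19.5, and 8.67, 8.61 and 8.93 in Adult. The E19.5 arrays lay below those of both other groups, with a difference of 1.54 between E10.5 and E19.5 (adjusted p = 1.34e-08) and of -0.88 between E19.5 and Adult (adjusted p = 1.48e-04). Its lowest stage mean was 7.45 at E18.5, and the Old arrays read 8.91, 8.94 and 8.93. A second probe set for Snrpb gave the same directions, at 1.02 for E10.5 minus Adult and -0.96 for E19.5 minus Adult. Snrpd3, which encodes SmD3, fell from 9.06, 8.99 and 8.72 at E10.5 to 7.04, 6.80 and 6.52 at E19.5, a DEG with a difference of 2.14 (adjusted p = 3.44e-06). Its Adult arrays, at 7.21, 6.97 and 7.25, overlapped those of E19.5.

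Snrpn, whose product SmN takes the same place in the Sm ring as SmB, was read by a single probe set near background, with a mean of 4.60 over the 36 arrays. It read 4.54, 4.02 and 4.54 at E10.5 and 4.97, 5.19 and 4.81 in Adult, a difference of -0.62 (adjusted p = 0.00322). With the hybridization covariate this difference turned to 0.049. The change in Snrpn minus Snrpb, taken on each array, was -1.29 for E10.5 minus Adult and 0.53 for E19.5 minus Adult. The exact two-sided permutation test gave p = 0.1 and p = 0.2, and 3 arrays against 3 cannot give less than 0.1, so neither change could pass.

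Transcripts for proteins particular to the U1 and U2 snRNPs were higher at E10.5 as well. For the U2 snRNP, Snrpa1 was higher at E10.5 than in Adult by 1.77 ± 0.19 (SE, adjusted p = 1.87e-09), with arrays at 9.08, 9.09 and 9.04 against 7.41, 7.31 and 7.19, and Snrpb2 was higher by 1.02. For the U1 snRNP, Snrpa was higher by 1.30 and Snrpc by 0.74, which was 0.22 without passing the test on centred arrays and -0.53 with the hybridization covariate. Snrpa kept its level longer than the others, with stage means between 8.14 and 8.41 from E10.5 to E17.5, 7.58 at E19.5 and 6.95 in Adult. Snrpc dipped from 8.28 at E10.5 to 6.87 at E15.5 and stood at 7.53 in Adult. Over the class, the median difference from Adult was 1.30 at E10.5, 0.73 at E14.5, 0.33 at E15.5 and finally 0.11 by E19.5.

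**Figure D2:**
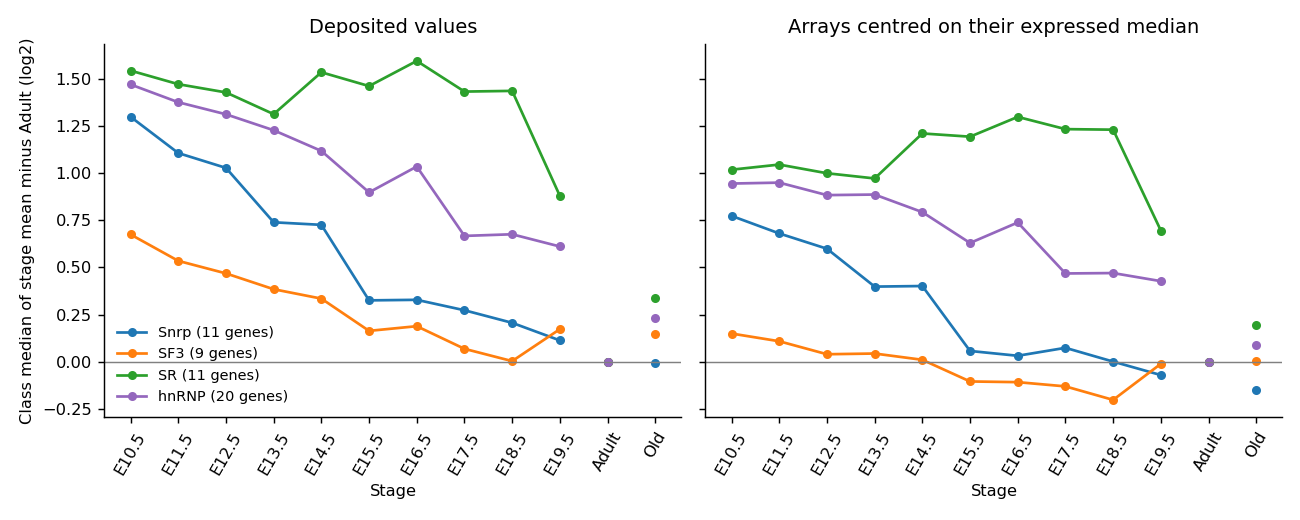
Class median of the difference between each stage mean and the Adult mean (y axis, log2) by stage (x axis), with deposited values on the left and centred arrays on the right. The SR line stays between 1.31 and 1.60 until E18.5 and stands at 0.88 at E19.5, whereas the Snrp line falls from 1.30 to 0.11 between E10.5 and E19.5. Each line is a median, and single genes of a class can depart from it.

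The SF3 subunits were split. Sf3a3, a subunit of SF3a, read 8.23, 8.29 and 7.96 at E10.5, 6.37, 6.16 and 5.87 at E19.5 and 5.68, 5.90 and 5.87 in Adult. It was a DEG against both later stages, at 2.34 ± 0.22 against Adult (SE, adjusted p = 1.14e-10) and 2.03 against E19.5 (adjusted p = 8.86e-09), and the E19.5 and Adult arrays overlapped. A second probe set for Sf3a3, with a mean of 5.49, gave 0.57 for E10.5 minus E19.5 and 0.86 for E19.5 minus Adult. Sf3b5, a small subunit of SF3b, was higher at E10.5 than in Adult by 2.06 ± 0.31, with arrays at 9.27, 9.62 and 8.58 against 7.18, 6.93 and 7.20, but with the hybridization covariate its difference turned to -0.075. Sf3b3 was higher by 1.76, Sf3a2 by 0.84, Sf3a1 by 0.68 and Sf3b1, whose product clamps the branch point, by 0.50.

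Sf3b2 ran the other way, but its probe sets disagreed. The probe set with the highest mean read 8.98, 8.81 and 9.13 at E10.5 and 10.13, 9.90 and 9.83 in Adult, a difference of -0.98 ± 0.17 (SE, adjusted p = 1.06e-05). It was lower at E19.5 than in Adult as well, by 0.72 (log2 difference -0.72, adjusted p = 0.00139). Another probe set for the gene, with a mean of 7.32, gave 0.75 for E10.5 minus Adult (adjusted p = 0.0041), and the mean of its 7 probe sets gave 0.10. Sf3b6, whose product touches the branch point adenosine, had a dip: its stage mean was 8.97 at E10.5, then 7.59 by E15.5, 8.08 by E19.5 and 8.63 in Adult. Sf3b4 stayed between 7.31 and 7.76 in every stage mean, with a difference of 0.26 between E10.5 and Adult (adjusted p = 0.0775). The class had 6 genes higher and 1 lower of 9 at E10.5, with a median of 0.68, and 3 higher and 1 lower with a median of 0.15 on centred arrays.

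The SR proteins held the largest difference of the 51 genes. Srsf10, a splicing repressor when dephosphorylated, read 9.22, 9.25 and 9.38 at E10.5, 7.78, 7.38 and 7.23 at E19.5, 5.87, 5.72 and 5.60 in Adult and 5.85, 6.52 and 6.28 in Old. The embryonic arrays did not overlap those of Adult, and the difference between E10.5 and Adult was 3.55 ± 0.23 (SE, adjusted p = 3.19e-14), an 11.7-fold change. It divided almost evenly around birth: 1.82 between E10.5 and E19.5 (adjusted p = 1.78e-07) and 1.73 between E19.5 and Adult (adjusted p = 5.16e-07). Its 3 other probe sets gave 1.73, 2.50 and 2.68 for E10.5 minus Adult. Srsf7 was higher at E10.5 by 2.46 ± 0.16, with arrays at 10.32, 10.42 and 10.63 against 8.28, 8.09 and 7.64. Srsf1, an SR protein needed for postnatal maturation of the mouse heart, was higher by 2.12 ± 0.13, with arrays at 11.39, 11.31 and 11.48 against 9.28, 9.34 and 9.19. Srsf7 and Srsf1 were both DEGs.

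As a class, 10 of the 11 SR genes were higher at E10.5 than in Adult and none was lower. Their median difference from Adult was 1.55 at E10.5 and 1.44 at E18.5, and 0.88 at E19.5 and 0.34 in Old. Single SR genes moved apart under this median. Of the 11, 8 had a falling slope over the embryonic days (limma, adjusted p under 0.05) and none a rising one. The median slope was -0.09 per day. Falling slopes were found for 27.3% of all genes and 47.1% of those with a mean above 5. On the probe set used, Srsf2 showed the course of the class median most plainly. Its stage means lay between 8.90 and 9.39 from E10.5 to E18.5 and were 8.53 at E19.5, 7.78 in Adult and 7.79 in Old. Its slope over the embryonic days was -0.01 per day (adjusted p = 0.701). Other probe sets for Srsf2 had means of 8.37, 6.42 and 5.24. They gave 1.45, 1.37 and -0.12 for E10.5 minus E19.5, and 0.28, 0.57 and -0.07 for E19.5 minus Adult. From E10.5 to E18.5 the stage means lay between 8.74 and 9.22 for Srsf4, between 8.93 and 9.59 for Srsf5 and between 10.00 and 10.50 for Srsf6. Srsf6 then went from 10.00 at E18.5 to 9.34 at E19.5 and 8.38 in Adult. Srsf3 differed from these on the probe set used, with 9.99 at E10.5, then 8.82 by E19.5 and 9.19 in Adult. With the hybridization covariate its difference between E10.5 and Adult turned to -0.21. The other Srsf3 probe sets, with means of 7.78, 7.57, 7.28, 7.20 and 5.70, disagreed on this course. They gave 1.70, 0.37, 2.51, 0.59 and 1.77 for E10.5 minus E19.5. For E19.5 minus Adult they gave -0.16, 1.26, 0.40, -0.28 and 0.21. Srsf9 reached 6.43 at E17.5, or 6.70 without the mixed array, and stood at 6.67 in Adult. Srsf12 was at background throughout, with stage means between 1.89 and 2.18.

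All 20 hnRNP genes were higher at E10.5 than in Adult, with a median of 1.47, and 18 of them remained higher on centred arrays, where the median was 0.95. Hnrnpl, which binds CA-rich sequence, read 9.87, 9.95 and 9.88 at E10.5, 9.04, 8.68 and 8.91 at E19.5 and 7.15, 7.00 and 7.19 in Adult. The groups did not overlap, and the difference between E10.5 and Adult was 2.78 ± 0.19 (SE, adjusted p = 7.5e-14), of which 1.76 lay between E19.5 and Adult. Hnrnpd, which binds AU-rich elements and promotes the decay of their transcripts, was higher by 2.72 ± 0.19 (adjusted p = 1.36e-13), with arrays at 10.89, 10.75 and 10.82 against 8.49, 7.72 and 8.10.

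On the probe sets used, other hnRNP genes fell mostly before birth. Hnrnpa1, a repressor of exon inclusion, read 10.13, 10.25 and 9.89 at E10.5, 8.20, 8.08 and 7.93 at E19.5 and 7.69, 7.49 and 7.44 in Adult. It was a DEG against Adult, at 2.55 ± 0.14, and against E19.5, at 2.02 (adjusted p = 1.68e-12). Other probe sets for Hnrnpa1, from the highest mean to the lowest, disagreed on this course. They gave 0.48, 1.32 and 0.27 for E10.5 minus E19.5, and 0.79, 0.33 and 0.47 for E19.5 minus Adult. The last of them had a mean of 3.37. Hnrnpm fell early, from 8.74, 8.89 and 7.90 at E10.5 to a stage mean of 6.60 at E13.5, and its E19.5 arrays, at 6.60, 6.60 and 6.08, overlapped those of Adult at 6.45, 6.25 and 6.49. Its difference was 2.12 between E10.5 and Adult, 2.09 between E10.5 and E19.5 (adjusted p = 9.14e-08) and 0.03 between E19.5 and Adult (adjusted p = 0.943). On the probe sets used, the smallest differences between E10.5 and Adult were those of Hnrnpk, a poly(C)-binding protein, at 0.67, Hnrnpf at 0.84 and Hnrnpul2 at 0.84. Other probe sets for Hnrnpk, with means of 9.20, 8.88 and 4.34, gave 1.22, 1.97 and 0.23. Hnrnpf and Hnrnpul1 did not pass the test between E10.5 and E19.5, at -0.08 and -0.05, and were higher at E19.5 than in Adult by 0.92 and 1.07. The probe sets for Hnrnpf disagreed on this course. With a mean of 10.4, another gave -0.07 and 0.96. Those with means of 7.58 and 7.10 gave 2.29 and 1.90 for E10.5 minus E19.5, and -0.22 and 0.05 for E19.5 minus Adult. Hnrnpa2b1 kept stage means between 11.77 and 12.04 until E18.5, with 11.34 at E19.5 and 10.09 in Adult.

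**Figure D3:**
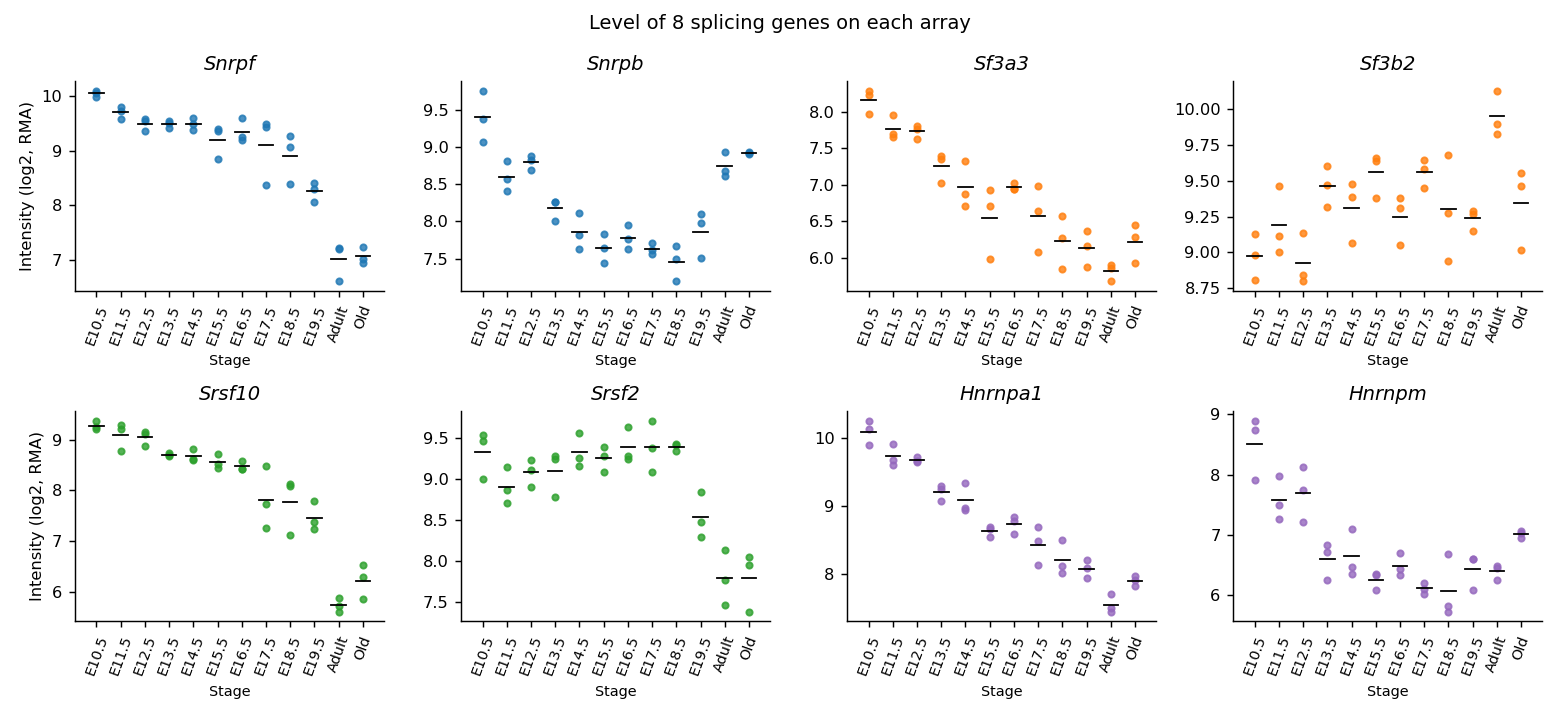
Log2 RMA intensity (y axis) of 8 genes on each of the 36 arrays by stage (x axis), where points are arrays and bars are stage means. Snrpb reaches its lowest stage mean, 7.45, at E18.5 and stands at 8.74 in Adult, whereas Srsf2 keeps its level until E18.5 and Hnrnpm falls to 6.60 by E13.5.

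The second comparison asked how much of the fall lay within embryonic life. Between E10.5 and E19.5, 39 of the 51 genes were higher at E10.5 (adjusted p under 0.05), against 23.6% of all genes, and the median was 0.95. None was lower at adjusted p under 0.05, against 26.2% of all genes, or at an unadjusted p under 0.05, against 32.1%. Of the genes with a mean above 5, 41% were higher and 21.6% lower. The DEGs were Snrpd3, Sf3a3, Hnrnpa1 and Hnrnpm, 4 of 51 genes, against 1.52% of all genes higher and 1% lower. Centred arrays gave 33 higher and 3 lower genes and a median of 0.61. Of the genes with a mean above 5, 28.7% were then higher and 35.6% lower. Along the 30 embryonic arrays, 42 genes had a falling and 2 a rising linear slope over the embryonic days. Among all genes, 27.3% had a falling and 43.9% a rising slope. Of the genes with a mean above 5, 47.1% had a falling and 26.1% a rising slope. The steepest slopes, in log2 units per day, were -0.23 for Snrpd3, -0.23 for Hnrnpm, -0.22 for Hnrnpa1 and -0.22 for Sf3a3, and the 2 genes that rose were Sf3b2 and Snrpn, at 0.04 and 0.03. Without the mixed arrays of E17.5 and E18.5, Snrpn alone rose. E10.5 is shared with the first comparison, so the values of both stand side by side and are not independent.

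The third comparison covered the step from the last embryonic day to the young adult. At E19.5, 29 of the 51 genes were higher than in Adult and 2 were lower, Snrpb and Sf3b2, with a median of 0.54, against 17% of all genes higher and 14.7% lower. Of the genes with a mean above 5, 32% were higher and 14.5% lower. None of the 51 genes was a DEG, against 1.02% and 0.787% of all genes. At an unadjusted p under 0.05 there were 31 higher and 5 lower, against 4229 higher and 4208 (20.3%) lower of all 20701 genes. The classes differed in their counts: 15 of 20 hnRNP and 8 of 11 SR genes were higher, but 4 of 11 Snrp and 2 of 9 SF3 genes. Class medians were 0.88 for SR and 0.61 for hnRNP genes, and 0.11 for Snrp and 0.17 for SF3 genes, and the last 2 turned to -0.07 and -0.01 on centred arrays. The difference in level between 3′ and 5′ probe sets of Gapdh, a sign of RNA integrity and labelling, was 2.80 at E10.5, 4.82 at E16.5, 3.94 at E19.5, 1.84 in Adult and 2.32 in Old. With it as a covariate, 16 genes were higher and 1 lower at E19.5. The shares of all genes were not taken for that fit.

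**Figure D4:**
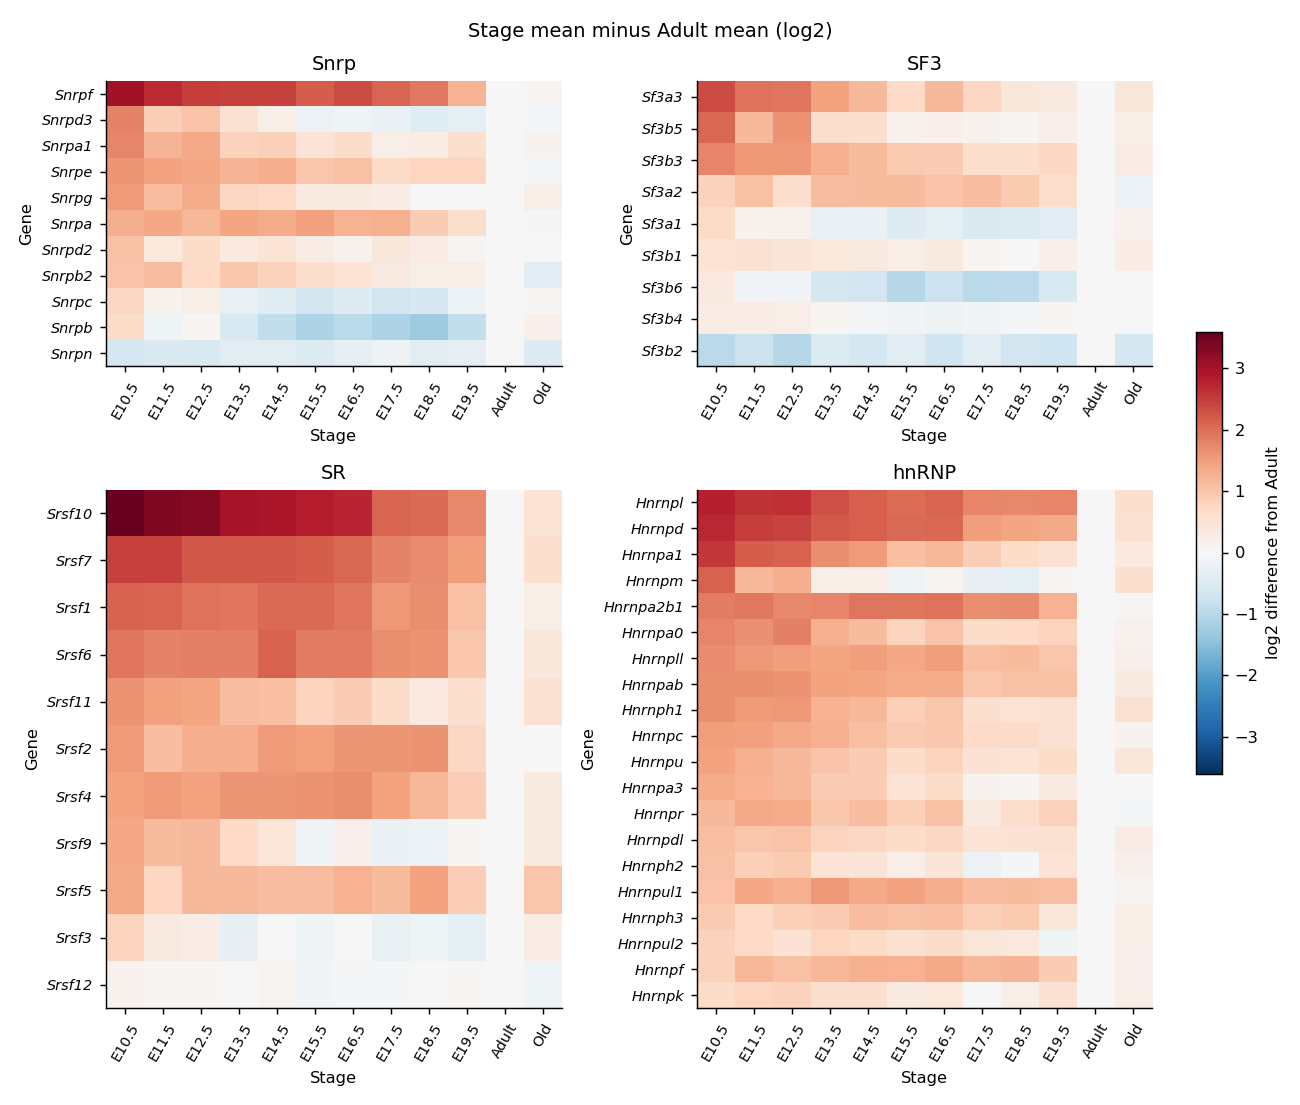
Stage mean minus Adult mean (colour, log2; red higher and blue lower than Adult) for the 51 genes (rows, by class and ordered by the E10.5 difference) and 12 stages (columns). Srsf10 reaches 3.55 at E10.5, and Snrpb, Snrpc, Sf3b6 and Sf3a1 turn blue in mid and late gestation.

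The course over all 12 stages was read from the stage means. For 31 of the 51 genes the highest mean was at E10.5, and for 37 the lowest was in Adult or Old. The counts of this paragraph were not taken over all genes, so they describe the 51 genes and do not set them apart from others. In 15 genes the Adult mean lay above the lowest embryonic mean. These were Snrpb, Snrpc, Snrpd3, Snrpg and Snrpn, Sf3a1, Sf3b2, Sf3b4 and Sf3b6, Srsf3, Srsf9 and Srsf12, and Hnrnph2, Hnrnpm and Hnrnpul2. The largest of these gaps were 1.29 for Snrpb, 1.03 for Sf3b6, 1.03 for Sf3b2, 0.67 for Snrpc and 0.62 for Snrpn.

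The fourth comparison set Old against Adult hearts. Of the 51 genes, 2 were higher in Old and 1 was lower, with a median of 0.19, against 4.46% of all genes higher and 3.13% lower. The genes with a mean above 5 had a median of 0.13, with 7.32% higher and 3.16% lower, so the members stood near that background. Without the mixed arrays of E17.5 and E18.5, which enter only the estimate of the spread, 6 genes were higher, the further ones being Hnrnpd, Hnrnph1, Hnrnpl and Hnrnpu. Srsf5, a regulator of exon inclusion, read 8.96, 8.96 and 9.49 in Old and 8.70, 8.02 and 7.73 in Adult, without overlap, a difference of 0.99 (adjusted p = 0.00222). Srsf7 was higher in Old by 0.61 (adjusted p = 0.0202), with arrays at 8.41, 8.71 and 8.70 against 8.28, 8.09 and 7.64. Sf3b2 was lower, with a log2 difference of -0.61 (adjusted p = 0.0245) and arrays at 9.55, 9.01 and 9.47 against 10.13, 9.90 and 9.83. Srsf7 missed the threshold without the mixed Adult array (0.43), the male Old array (0.55) or the mixed Old array (0.56), and Sf3b2 without the male (-0.64) or female (-0.52) Adult array or the male Old array (-0.44). A fit on the 6 arrays of Adult and Old alone called none of the 51 genes. On centred arrays 1 gene was higher, 1 was lower and the median was 0.04. Of the genes with a mean above 5, 3.9% were then higher and 4.71% lower. Other probe sets of the 51 genes passed the adjusted test in both directions. For Srsf3, a probe set gave -1.58 (limma, adjusted p = 1.99e-06) and another 1.21 (adjusted p = 0.00223). Lower in Old were also probe sets for Hnrnpr (-1.10), Hnrnpu (-1.02) and Sf3b2 (-0.75). Higher were those for Hnrnpdl (1.19, 0.92 and 0.53), Sf3b3 (0.88) and Hnrnpa2b1 (0.74). In male against female arrays of the same stage (9 pairs from E13.5 to Old), none of the 51 genes passed the adjusted test, 0 were higher and 2 lower at an unadjusted p under 0.05, and the smallest adjusted p was 0.595. Among all genes 0.0242% were higher and 0.0193% lower in males by the adjusted test, and 4.53% were lower at an unadjusted p under 0.05.

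The probe set that stands for a gene mattered for some members. The 37 genes with more than 1 probe set had 93 others, of which 67 were higher and 8 lower at E10.5 than in Adult. In 9 genes another probe set passed the test in the opposite direction, and in 5 of these, Hnrnpab, Sf3a2, Sf3b1, Sf3b2 and Sf3b4, that probe set had a mean above 5. For Hnrnpab the probe set used gave 1.67 and another, with a mean of 10.3, gave -1.74, while its 4 remaining probe sets gave values from 1.13 to 2.42. For Sf3b1, 4 probe sets gave 0.50, 0.0027, -0.56 and 1.57. Which transcripts of a gene each probe set reads was not tested. With the second-highest probe set in place of the first, 26 of 37 genes were higher and 5 lower at E10.5, with a median of 1.15. For E19.5 minus Adult that choice left 10 genes higher and a median of -0.01.

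**Figure D5:**
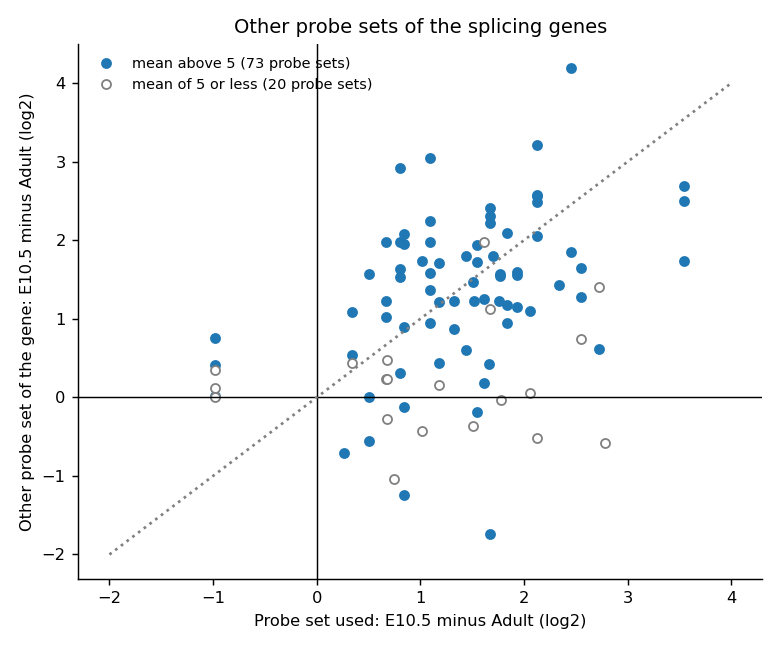
Difference between E10.5 and Adult (log2) for 93 other probe sets (y axis) against that of the probe set used for the same gene (x axis), with 73 above and 20 at or under a mean of 5; the dotted line is equality. Most points lie above 0 on both axes, and the lowest point, at -1.74, belongs to Hnrnpab.

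Genes that work with these proteins were read from 9 further lists, whose counts stand against 50.7% higher, 22.9% lower and a median of 0.44 for the genes with a mean above 5. Of 14 hnRNPs under other symbols, 12 were higher and 1 lower at E10.5 than in Adult, with a median of 1.00. Ptbp2, a repressor of neuronal exons, was higher by 3.54 (adjusted p = 3.61e-13) and Rbmxl1 by 2.98, whereas its relative Ptbp3 was lower, at -1.25 (adjusted p = 1.3e-05), and Pcbp3 gave -0.26. Of 14 proteins of the U5 snRNP and the tri-snRNP, 12 were higher and none lower, with a median of 0.86, led by Ppih at 2.43 and Snrnp40 at 2.34, with Sart1 at 0.22 and Ddx23 at 0.29 not passing. Of 17 other proteins of U1 and U2, 13 were higher and 1 lower, with a median of 0.88. Prpf39 gave 2.02, Luc7l3 was lower at -1.02, and Ddx46 gave 0.07. Of 13 LSm genes, whose products form rings like that of the Sm proteins, 11 were higher and none lower, with a median of 1.02. Lsm5 gave 2.60 and Lsm1 2.26, and Lsm11 and Lsm12 did not pass, at 0.15 and 0.46.

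The minor spliceosome, which removes a rare class of introns, was divided, with 3 genes higher and 4 lower of 8 and a median of -0.12. Zrsr2 gave 2.46 and Rnpc3 1.49, against -1.07 for Zrsr1 and -0.94 for Snrnp48. Of 19 proteins of the Prp19 complex and the catalytic helicases, 11 were higher and 2 lower, with a median of 0.45, near that background; Bcas2 gave 2.12, Dhx35 2.09, Isy1 -1.45 and Syf2 -0.82. Of 19 SR-related proteins and SR kinases, 10 were higher and 5 lower, with a median of 0.55, also near it. Tra2b, an activator of exons that shares the RS domain, gave 2.01 and Pnn 1.74, while Son was lower at -1.12 and the kinase Clk1 at -0.68. Of 13 genes for the assembly of Sm rings, 10 were higher and none lower, with a median of 1.34. Gemin6 gave 2.48 and Strap 2.01, and Snupn and Gemin8 did not pass, at -0.31 and -0.11. All 5 exon junction complex genes were higher, from 0.74 for Casc3 and 1.51 for Eif4a3 to 1.87 for Magohb and 2.49 for Magoh, with a median of 1.75.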

How the data were processed

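RNA of mouse hearts was hybridized to an Affymetrix mouse genome array. The authors deposited 1 table of log2 intensities, made by the robust multi-array average (RMA), a method that corrects background, normalizes quantiles and summarizes probes. The submitters' processing notes name Affymetrix Expression Console and Partek 6.6, and the methods name R. The values were used as deposited, and every value column was mapped to a sample by the name in its labels.

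A linear model with a mean for each of 12 stages was fitted to all probe sets with limma 3.58.1 (R 4.3.3), with empirical Bayes and Benjamini-Hochberg adjustment over all probe sets. The slope used 30 embryonic arrays, and the sex comparison used stage as a block over 9 pairs. The filter on a level of 5 was applied after the fit. Python 3.11 and matplotlib drew the figures. The code was tested on simulated data.

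Named with full values were the 3 highest and 3 lowest genes of each class for E10.5 minus Adult, every DEG, every gene called against its class median, every gene called in Old or between sexes, and up to 2 highest and 2 lowest of each list. One gene that this rule names is not reported here. Others were named after their values were seen. The genes, lists, motifs and rules were chosen with earlier results of these data known. The lists covered spliceosome parts and markers of other cell types. Listed genes of endothelium, fibroblast, epicardium, adipocyte and neuron had mean levels of 6.23, 8.81, 6.08, 2.58 and 4.16 at E10.5 and of 7.08, 9.84, 4.82, 6.22 and 4.23 in Adult. Alternatives tried were the sex label (male, female, mixed) as a replicate block, centring, quantile renormalization, covariates, other probe sets, filters and leaving out each array.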

Additional observations from a re-analysis of the deposited data

How the results depend on the processing

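The direction of the median difference between E10.5 and Adult held under every alternative, from 0.70 to 1.54 on the log2 scale, while its size and the counts depended on scaling and on the probe set. With arrays centred on probe sets with a mean above 5, 5 genes passed the DEG limits for E10.5 minus Adult with a median of 0.92. The median was 0.61 with 3 lower genes for E10.5 minus E19.5, and 0.35 with 5 lower genes for E19.5 minus Adult. Of the genes with a mean above 5, 35.6% and 22.6% were lower in these comparisons. Old minus Adult had 1 higher gene, against 3.9% of the genes with a mean above 5. On these centred arrays 5 slopes rose and 34 fell, against 39.6% and 32.7% of the genes with a mean above 5. With quantile renormalization the values of the 51 genes were 6 DEGs and 0.99 for E10.5 minus Adult. They were then 0.59 with 1 lower, then 6 lower, and 1 higher in Old. With the hybridization control level as a covariate, E10.5 minus Adult had 23 higher and 1 lower gene, 1 DEG and a median of 0.70. That fit turned 14 of the 51 genes, among them Sf3b5 (-0.075), Snrpb (-0.22), Snrpc (-0.53), Snrpd3 (-0.66), Snrpn (0.049) and Srsf3 (-0.21). It gave 21 higher genes and 0.46 for E10.5 minus E19.5, 12 lower genes and 0.34 for E19.5 minus Adult, 1 higher and 2 lower genes with a median of -0.027 for Old minus Adult, and 0 rising slopes. The hybridization controls followed stage, so the covariate and the stage cannot be told apart fully.

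With the second-highest probe set (37 genes), E10.5 minus Adult had 26 higher and 5 lower genes, 1 DEG and a median of 1.15. The direction differed in 8 genes, Hnrnpab (-1.74), Sf3a2 (-1.24), Sf3b4 (-0.70), Hnrnpl (-0.58), Hnrnpul2 (-0.12), Sf3b2 (0.41), Snrpc (-1.03) and Snrpd3 (-0.039), but the second probe sets of Hnrnpl, Snrpc and Snrpd3 had means of 2.55, 3.33 and 3.73, near background. E10.5 minus E19.5 had 22 higher and 6 lower genes and 0.78, with 10 genes of another direction, Hnrnpl (-0.36) and Snrpd3 (-0.20) among them. E19.5 minus Adult had 10 higher genes and -0.010, with 16 genes of another direction, Hnrnpd (-0.17), Hnrnpl (-0.22) and Srsf7 (-0.50) among them, and Old minus Adult had 1 higher and 0 lower. The mean of all probe sets gave 5 DEGs, 1 lower gene and 1.26 for E10.5 minus Adult, with Sf3b2 (0.10) and Snrpc (-0.15) reversed, 1 lower gene for E10.5 minus E19.5 and 0 lower in Old. Without probe sets whose names end in _x_at or _s_at there were 4 lower genes for E10.5 minus Adult and 2 for E10.5 minus E19.5. That fit gave a median of 0.28 for E19.5 minus Adult with Srsf7 (-0.50) reversed, 1 higher gene in Old and 4 rising slopes. These fits used other probe sets and, for the second-highest, fewer genes. The fit without _x_at and _s_at probe sets covered 50 genes. Leaving out the mixed arrays of E17.5 and E18.5 gave 6 higher genes for Old minus Adult and 1 rising slope. This setting, the second-highest probe set and the Gapdh covariate were chosen after seeing the data.

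The Gapdh 3′ minus 5′ covariate gave 16 higher and 1 lower gene for E19.5 minus Adult and 0 rising slopes. Centring on all probe sets gave 0 rising slopes, filtering before the model gave 1 rising slope and 1 lower gene for E10.5 minus Adult, and a block for the start of the sample titles gave 0 and 1. The filter before the model removed Srsf12 and Snrpn, and Snrpn was otherwise among the lower and the rising genes. With the sex label as replicate block, E10.5 minus Adult had 46 higher genes, 1 slope rose, and on the 6 arrays of Adult and Old alone 0 genes were higher and 0 lower, as without the block. The labels did not pair the arrays: deviations of same-labelled arrays correlated at 0.096, 0.0059 and 0.023 between Adult and Old and at 0.208, 0.022 and 0.075 between E19.5 and Adult (female, male and mixed). Leaving out each array in turn gave 45 to 46 higher genes, 2 to 2 lower, 8 to 10 DEGs and medians of 1.38 to 1.53 for E10.5 minus Adult. It gave 38 to 41 higher for E10.5 minus E19.5 and 25 to 30 higher for E19.5 minus Adult. For Old minus Adult it gave 1 to 5 higher and 0 to 1 lower, and 0 to 2 slopes rose. The cause of these changes was not tested.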
